A study of Mus musculus with 8 samples.

Results

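Light zone and dark zone germinal centre B cells with an intact Bach2 gene were compared across 10610 genes, of 23234 genes listed. The genes compared were those with at least 1 FPKM in 2 or more of the 8 RNA-seq libraries of the study, where FPKM counts fragments scaled to transcript length and to the mapped fragments of the library. The comparison rests on 4 libraries, 2 from each zone. The donor B cells were Bach2(+/+) Prdm1(f/f) and also carried the alleles ERT2cre(KI/+) and B1-8hi(KI/+), on a C57BL/6 background; their age is not given. B1-8hi is a knocked-in antibody heavy chain that gives strong binding of the hapten NP, and ERT2cre is a tamoxifen-inducible recombinase whose action is not limited to B cells by the allele itself. Naive donor cells were put into wild-type recipients that differ from the donors in CD45 alleles and keep their own lymphocytes, and tamoxifen was given at 3 mg for 3 days before intraperitoneal NP-CGG in alum. On day 10, NP-binding donor cells positive for GL7 and negative for CD38 were sorted from the pooled spleens of 5 recipients as light zone (CD86 high, CXCR4 low) or dark zone (CD86 low, CXCR4 high), with about 30000 cells per library. Prdm1 was floxed in every library, so no cells with an untouched Prdm1 gene were analysed here. The other 4 libraries, 2 per zone, came from Bach2(f/f) Prdm1(f/f) cells with the same other alleles, handled the same way, and they shared in the estimate of the spread.

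Germinal centres are sites in lymphoid tissue where activated B cells mutate their antibody genes and compete for survival. Cells divide and mutate in the dark zone, near CXCL12-producing stroma that holds CXCR4-bearing cells. They then move to the light zone, where they take up antigen through their receptor, present it on MHC class II and receive CD40 and cytokine signals from follicular helper T cells. Bach2 represses transcription in B cells, and Prdm1 encodes Blimp-1, which drives plasma cell differentiation. The question addressed by this comparison is how the 2 zones differ in cells that keep Bach2.

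The libraries carried the transcripts of germinal centre B cells. Cd79a was at 808 and 781 FPKM in the light zone libraries and at 738 and 779 in the dark zone libraries, and Bcl6, the master regulator of the germinal centre state, was at 130 and 120 against 126 and 122. Neither gene passed the test between zones (adjusted p = 0.293 and 0.934, limma with Benjamini-Hochberg adjustment). The sorting markers followed the gates: Cd86 was at 90.9 and 106 FPKM in the light zone and 34.8 and 38.4 in the dark zone, and Cxcr4 at 78.3 and 73.5 against 131 and 137. These describe the sort and are not findings. Prdm1 stayed between 0.0184 and 0.122 FPKM in all 4 libraries, under the filter. Bach2 itself, which codes for the repressor left intact here, was at 49.8 and 53.4 FPKM in the light zone and at 76.2 and 74.6 in the dark zone. It was thus lower in both light zone libraries than in either dark zone library, by 0.54 ± 0.044 (SE) on the log2(FPKM + 1) scale (adjusted p = 0.000499, limma).

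Markers of other cells were mostly near 0. Of 13 T cell markers, 12 were under 1 FPKM in all 4 libraries, and Cd3g was listed at 0 in each; the 13th was Cd2. Of 15 myeloid markers, C1qa, C1qb, C1qc and Cd14 were listed at 0 in all 4, and the 15 together summed to 16.8 and 61.9 FPKM in the light zone against 7.51 and 8.89 in the dark zone. The neutrophil genes S100a8 and S100a9 made most of the highest sum, at 21.7 and 19.8 FPKM in light zone replicate 2 and 3.03 and 1.00 in replicate 1. Of the 15 myeloid markers 7 were tested, and all 7 were higher in the light zone by 0.524 to 3.04 (median 0.936), with 1 past the threshold. The 6 erythroid markers summed to 25.5 and 35.8 FPKM in the light zone and 18.9 and 22.5 in the dark zone. In bulk libraries like these, fewer cells of a type and less RNA per cell cannot be told apart. By the steps of their lowest values, the dark zone libraries were 1.49 times as deep as the light zone libraries, so low values are coarser in the light zone. Over all tested genes replicates correlated at 0.946 in the light zone and 0.955 in the dark zone, close to the 0.940 to 0.948 of libraries of different zones. Over 5933 genes with a mean of at least 10 FPKM, small RNA genes left out, the values were 0.986, 0.992 and 0.962 to 0.974. A replicate's source is not stated in the labels, so p-values measure the spread between these libraries only, which may be technical.

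The zones differed in 3312 of the 10610 genes (31.2%), 1609 of them higher in the light zone (15.2%) and 1703 lower (16.1%; adjusted p below 0.05, limma). Most differences were small: the median size among these 3312 genes was 0.37 on the log2(FPKM + 1) scale, and 71.3% of them were under 0.5. Only 95 genes were higher in the light zone by at least 1 and 67 lower by at least 1. All 3312 had no overlap between the libraries of the zones, which was true of 65.8% of all genes tested and so is a weak criterion with 2 libraries a group. With only these 4 libraries in the fit, 892 genes were higher and 786 lower. Without light zone replicate 2, the library with the neutrophil transcripts, 1062 were higher and 1015 lower. All 3312 genes kept their direction without that library, which was fixed in advance by the lack of overlap. Leaving out dark zone replicate 1 gave 1019 higher genes, and leaving out dark zone replicate 2 gave 917 lower genes.

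**Figure D1:**
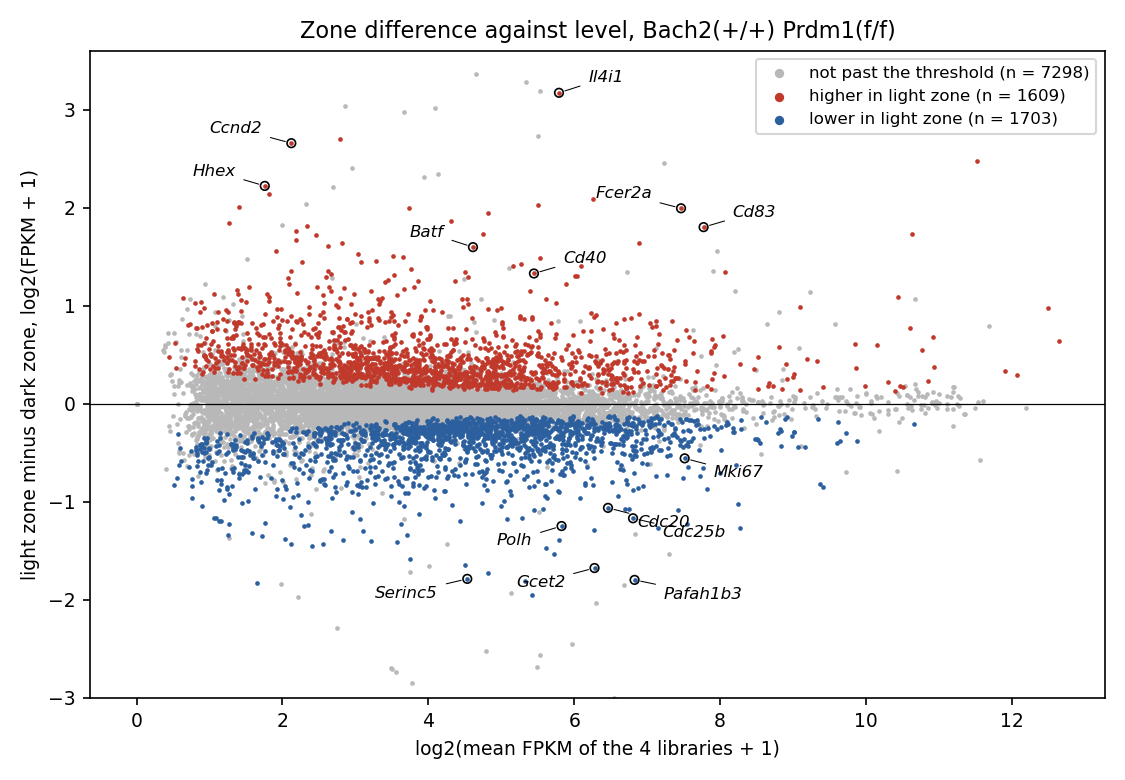
Each point is 1 of 10610 genes, placed by its level (log2 of the mean FPKM of the 4 libraries + 1) and its light zone minus dark zone difference on the log2(FPKM + 1) scale; red and blue genes passed the adjusted threshold. Il4i1 and Ccnd2 stand highest of the labelled genes and Pafah1b3 and Serinc5 lowest, most differences lie under 1 in size, and 36 genes outside -3 to 3.6 are not drawn.

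The gene with the highest difference by the naming rule was Il4i1, which encodes a secreted L-amino acid oxidase. It was at 94.0 and 103 FPKM in the light zone and at 10.6 and 9.53 in the dark zone, a 9.80-fold ratio of means (3.17 ± 0.091, adjusted p = 2.75e-05, limma). Ccnd2, a D-type cyclin that drives entry into the cell cycle after mitogenic signals, was at 5.94 and 7.10 FPKM against 0.220 and 0.157 (2.66 ± 0.10). It was thus near 0 in both dark zone libraries, unlike Ccnd3, the D-type cyclin that germinal centre cells rely on, at 133 and 118 FPKM in the light zone and 167 and 197 in the dark zone (-0.53 ± 0.088, adjusted p = 0.00629, limma). Fcer2a, the low-affinity IgE receptor CD23, was at 270 and 292 FPKM against 68.8 and 70.9 (1.99 ± 0.050). Cd83, a surface protein used to gate light zone cells, was at 320 and 359 FPKM against 94.6 and 98.3 (1.80 ± 0.058). In each of these genes except Ccnd3, both light zone libraries lay far above both dark zone libraries.

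The remaining leaders on the light zone side were Cfp, Snn, Serpinb1a, Fam55b, Plbd1, Plscr1, Aldoc and 4 copies of Bcl2a1, with differences from 1.63 for Aldoc to 2.08 for Bcl2a1b. Cfp encodes properdin, which stabilises the alternative complement convertase, and was at 19.7 and 20.6 FPKM against 5.00 and 3.71. Plbd1, a phospholipase B family member, was at 7.41 and 7.54 FPKM against 1.55 and 1.59. Cfp, Plbd1 and Serpinb1a are also known from myeloid cells. The neutrophil gene S100a8 was at 3.03 FPKM in light zone replicate 1 and 21.7 in replicate 2. Serpinb1a was at 4.98 and 7.04 FPKM in the light zone and at 0.813 and 1.30 in the dark zone. The part of myeloid RNA in the differences of Cfp, Plbd1 and Serpinb1a was not tested.

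**Figure D2:**
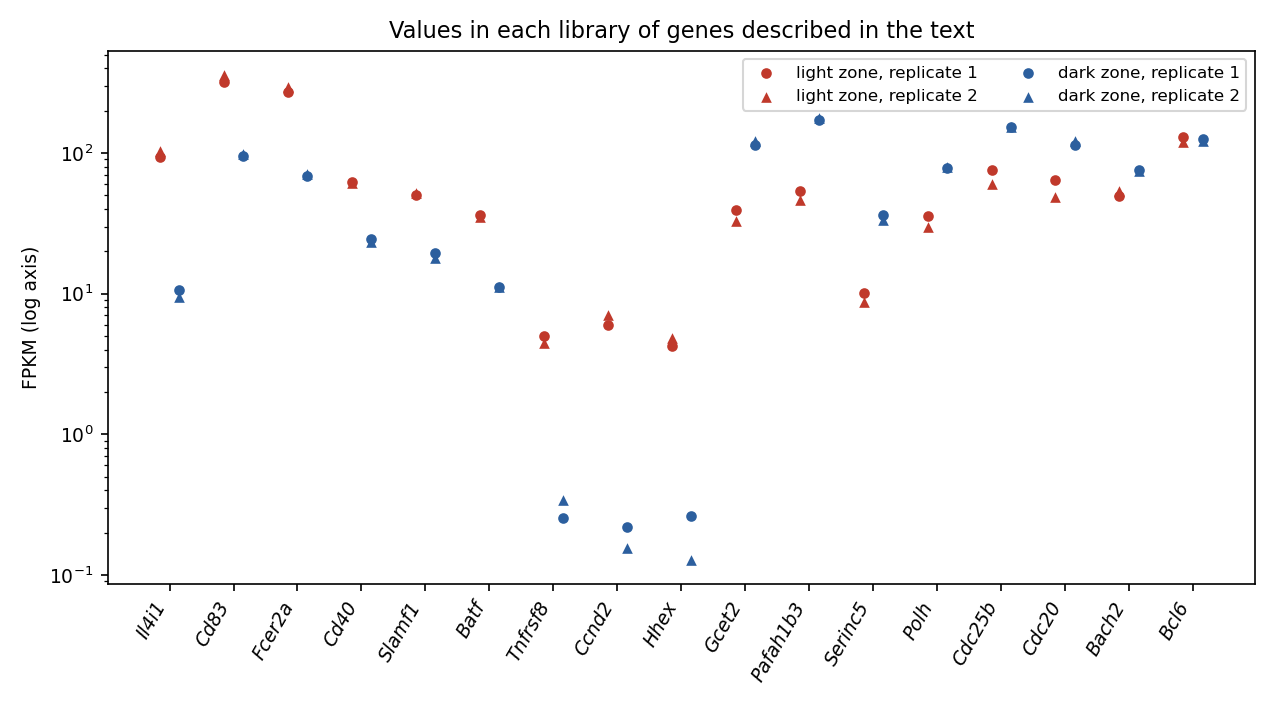
FPKM (log axis) of 17 genes in each of the 4 libraries, red for light zone, blue for dark zone, circles for replicate 1 and triangles for replicate 2. The replicates lie close together, the zones separate for every gene but Bcl6, and Tnfrsf8, Ccnd2 and Hhex fall under 0.4 FPKM in the dark zone.

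The signals that T cells give in the light zone run through CD40 and the NF-kB transcription factors, and genes of this response were higher there. Of 35 tested members of the NF-kB and CD40 list, 25 were higher in the light zone, 1 was lower (Cd80) and 9 did not pass the test. Cd80 was low in all libraries, at 0.508 and 0.607 FPKM against 1.05 and 1.12, and its call was lost without any 1 of the 4 Bach2-intact libraries (adjusted p from 0.0283 to 0.216 over the alternatives, limma). The median difference was 0.73, beside -0.00445 over all genes tested. Cd40, the receptor itself, was at 61.9 and 60.9 FPKM in the light zone and 24.5 and 23.3 in the dark zone (1.33 ± 0.056, adjusted p = 8.68e-05, limma). Nfkb2, which codes for the p100 precursor of the non-canonical pathway, was at 51.0 and 49.8 FPKM against 26.9 and 27.4 (0.87 ± 0.047). Birc3, an inhibitor of apoptosis and NF-kB target, was at 69.7 and 72.2 FPKM against 34.1 and 34.6 (1.03 ± 0.039). The ratio of zone means was 1.85 for Nfkb2, 2.07 for Birc3 and 2.57 for Cd40, and replicates lay close together. Nfkbia, the NF-kB inhibitor that NF-kB itself induces, was less even, at 110 and 83.1 FPKM against 63.8 and 39.2 (0.92 ± 0.23, adjusted p = 0.026, limma): the lower light zone library lay nearest to the higher dark zone library. The call was lost without light zone replicate 1 (0.72, adjusted p = 0.101, limma) and without dark zone replicate 2 (0.58, adjusted p = 0.0749, limma), and its adjusted p ranged from 0.00796 to 0.101 over the alternatives.

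The 250 bases before the start of Nfkbia, chr12:55492648-55492897 on the minus strand (RefSeq, GRCm38.p6), are shown because this gene carries the kappa B motif bound by NF-kB, here read on the opposite strand and set in capitals, 29 bases before the start.
Nfkbia: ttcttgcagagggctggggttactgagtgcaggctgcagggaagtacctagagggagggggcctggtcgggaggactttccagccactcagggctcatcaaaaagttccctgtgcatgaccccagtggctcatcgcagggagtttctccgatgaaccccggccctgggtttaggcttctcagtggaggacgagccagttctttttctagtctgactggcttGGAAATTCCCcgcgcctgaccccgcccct
The motif, searched as 1 fixed spelling with 1 free base on either strand, stood in 2 of 38 windows (5.26%) of 29 list members with a RefSeq start, at Nfkbia and at 1 of 3 starts of Nfkb2. It stood in 0.322% of 10546 windows of tested genes and 0.356% of all 32851 windows of the table. It also stood in 2.86% of 70 windows of the mitotic genes described further on, which were lower in the light zone. A match is a description and not a shown binding site. The study's own files use mm9, and no coordinate of theirs is used.

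Surface molecules of T cell help and adhesion were also mostly higher in the light zone, 19 of 24 tested, with 4 lower and a median difference of 0.41. The lower count was 2 without light zone replicate 2 or either dark zone replicate. Slamf1, a homophilic receptor at the contact of B and T cells, was at 49.9 and 51.9 FPKM against 19.4 and 17.9 (1.40 ± 0.052). Icosl, the ligand for ICOS on follicular helper T cells, was at 60.6 and 62.1 FPKM against 43.5 and 41.8 (0.52 ± 0.043), a smaller difference. Slamf6, another receptor of the family, went the other way at 31.0 and 29.6 FPKM against 39.9 and 40.8 (-0.40 ± 0.039). Without both replicate 2 libraries 11 members were higher. The co-inhibitory receptor gene Btla was higher by 0.52 ± 0.051 and Sema7a, an integrin ligand, by 0.70 ± 0.042.

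Most tested genes of antigen presentation on MHC class II were higher in the light zone. Of 18 tested 14 were higher and 0 lower, with a median of 0.53; the 4 that did not pass were Lgmn, March1, Rfxank and Rfxap, whose differences lay below 0. H2-Aa, an MHC class II alpha chain, was at 2338 and 2416 FPKM in the light zone and 1435 and 1538 in the dark zone (0.68 ± 0.050). Ifi30, the thiol reductase that opens disulfide bonds of antigens in lysosomes, was at 364 and 401 FPKM against 142 and 160 (1.34 ± 0.070, adjusted p = 0.000142, limma). H2-Oa, part of the DO complex that tempers peptide loading, was at 173 and 162 FPKM against 93.4 and 94.8 (0.83 ± 0.048). In all 3 genes the zones were far apart relative to the replicates. The count stayed at 14 without light zone replicate 2.

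Receptors for cytokines and TNF family ligands followed. Of 32 tested cytokine receptor, STAT and SOCS genes, 16 were higher in the light zone and 3 lower (median 0.27), and 8 were higher without both replicate 2 libraries. Il2rg, the common gamma chain shared by receptors for IL-4 and IL-21, was at 101 and 103 FPKM against 52.4 and 55.3 (0.91 ± 0.046). Il21r, the receptor for the follicular helper cytokine IL-21, was higher by a smaller 0.44 ± 0.056. Tgfbr1, a TGF-beta receptor chain, was the lowest of the list at 12 and 12.4 FPKM against 25.7 and 26.1 (-1.03 ± 0.041, adjusted p = 7.45e-05, limma). Of 13 tested TNF receptor genes 6 were higher and 0 lower. Tnfrsf8, which encodes CD30, was at 4.99 and 4.44 FPKM in the light zone and at 0.256 and 0.342 in the dark zone (2.14 ± 0.088), and Tnfrsf13c, the BAFF receptor, at 315 and 335 against 195 and 206 (0.69 ± 0.049).

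Genes induced by the antigen receptor gave a divided picture. Of 27 tested members of that list, 7 were higher in the light zone, 2 were lower and 18 did not pass the test, although the median difference was 0.66. With a term for the replicate number within each genotype in the fit, 15 were higher, although nothing in the labels ties same-numbered libraries. Egr2 and Egr3, transcription factors induced by calcium and ERK signalling, were higher: Egr3 was at 7.37 and 9.29 FPKM against 1.69 and 2.43 (1.61 ± 0.17, adjusted p = 0.00114, limma). Irf4, a factor induced in proportion to receptor and CD40 signals, was at 11.0 and 11.6 FPKM against 4.05 and 3.01 (1.45 ± 0.12). Nab2, a corepressor of the EGR proteins, was at 9.40 and 9.44 FPKM against 4.30 and 4.8 (0.91 ± 0.068). In each of these genes both light zone libraries lay above both dark zone libraries, as for every higher gene past the threshold. Dusp5, a phosphatase that acts on ERK, was lower at 8.29 and 7.54 FPKM against 12.5 and 13.5 (-0.65 ± 0.070).

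Several members that did not pass differed more between replicates than between zones. Fos, the immediate-early AP-1 subunit, was at 212 FPKM in light zone replicate 1 and 49.9 in replicate 2, and at 219 and 66.0 in the dark zone. Fosb was at 69.2 and 8.16 FPKM against 69.7 and 10.4. In both zones the library numbered 1 was the high one. Within numbers 1 and 2 the zone differences were smaller, at -0.0454 and -0.396 for Fos and -0.0103 and -0.318 for Fosb. Among 8095 genes reaching 5 FPKM, 13 were higher by at least 1 in replicate 1 in both zones: Dusp1, Fos, Fosb, Gm129, Hist1h2bg, Jun, Klf2, Ppp1r15a, Rasd1, Rgs1, Rhob, Sik1 and Zfp36. Only Pisd-ps3 and Snhg9 were that much higher in replicate 2 in both zones, 2 genes had opposite differences of that size in the zones, and 0 of the 13 differed between zones past the threshold. In the Bach2-floxed libraries 1 gene was higher in replicate 1 by that rule and 2 in replicate 2, and Fos differed there between replicates (replicate 1 minus 2) by -0.17 in the light zone and -0.12 in the dark zone. Many of the 13, among them Fos, Fosb, Jun, Dusp1 and Zfp36, are known as immediate-early genes.

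**Figure D3:**
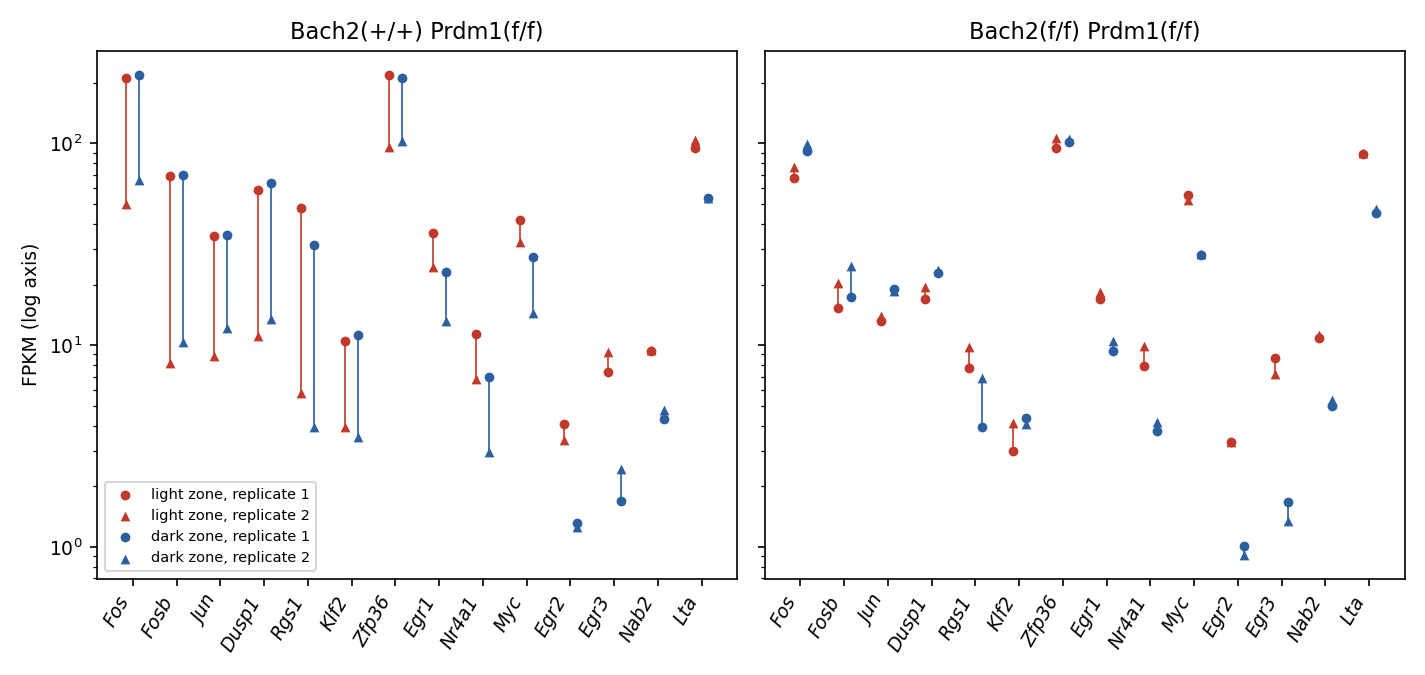
FPKM (log axis) of 14 response genes in each library; lines join the replicates of a zone, red for light and blue for dark, with Bach2(+/+) Prdm1(f/f) on the left and Bach2(f/f) Prdm1(f/f) on the right. On the left Fos, Fosb, Jun, Dusp1, Rgs1, Klf2 and Zfp36 separate by replicate number and not by zone, while Egr2, Egr3, Nab2 and Lta separate by zone.

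Within each replicate number the zone difference of the antigen receptor list kept its sign: 20 of the 27 genes were higher in the light zone in both numbers, 7 lower in both and 0 mixed, where 75.5% of all tested genes kept their sign, so this is a weak criterion. Myc, the growth regulator that marks positively selected light zone cells, was at 41.6 and 32.6 FPKM in the light zone and 27.4 and 14.4 in the dark zone, with differences of 0.59 within number 1 and 1.12 within number 2. It did not pass the test (0.86 ± 0.27, adjusted p = 0.0517, limma), but passed in 9 of 23 alternatives, among them without dark zone replicate 1 (1.30, adjusted p = 0.00545, limma), over a range of adjusted p from 0.00318 to 0.178. Nr4a1, which encodes the receptor-signal reporter Nur77, was at 11.4 and 6.79 FPKM against 6.95 and 2.95, with 0.64 and 0.98 within the numbers. It did not pass the test (adjusted p = 0.128, limma) and passed in only 3 of 23 alternatives. The zones overlapped for Nr4a1 and did not overlap for Myc. With the replicate number within genotype in the fit, both passed, as did Egr1 (adjusted p = 0.019 for Myc, 0.0137 for Nr4a1 and 0.00719 for Egr1, limma). The count of higher list members was 12 without small RNA genes, 6 with no filter on low values and 15 with the replicate number within genotype.

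Genes of ribosome assembly, a main target programme of MYC, were higher in the light zone as a group. Of 49 tested members of the MYC target and ribosome biogenesis list, 42 were higher and 0 lower, with a median of 0.44, and 37 were higher without light zone replicate 2. Gnl3, which encodes nucleostemin, was at 42.2 and 40.3 FPKM against 20.8 and 20.3 (0.97 ± 0.040, adjusted p = 7.49e-05, limma). Npm1, the abundant nucleolar chaperone, was at 734 and 744 FPKM against 536 and 559 (0.43 ± 0.039). Mybbp1a, a nucleolar protein, was at 71.1 and 72.0 FPKM against 46.7 and 47.1 (0.60 ± 0.032). Each gene was higher in both light zone libraries than in either dark zone library, as was every higher gene past the threshold. The genes of cytosolic ribosomal proteins did not share this: of 83 tested 6 were higher, 2 lower and 75 did not pass, with a median of 0.023. The higher count was 1 without light zone replicate 2, 2 without dark zone replicate 1 or either dark zone library of the Bach2-floxed cells, 9 without dark zone replicate 2 and 3 without either light zone library of the Bach2-floxed cells.

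Metabolic lists followed in part. Of 31 tested sterol and fatty acid genes 17 were higher and 1 lower (median 0.22), with 11 higher without dark zone replicate 1. Scd1, the desaturase that makes oleate, was at 112 and 114 FPKM against 71.6 and 70.1 (0.67 ± 0.036). Of 31 tested genes of mTORC1 and ATF4 amino acid supply 9 were higher and 3 lower, with 5 higher and 0 lower without light zone replicate 2, and 0 lower without dark zone replicate 2. Slc7a5, the large neutral amino acid transporter, was at 21.8 and 21 FPKM against 14.1 and 15.8 (0.49 ± 0.059), and Ddit4, an inhibitor of mTORC1, at 14.6 and 16.2 against 8.80 and 7.47 (0.85 ± 0.10). Of 20 tested glycolysis genes 5 were higher and 1 lower, the lower being Gapdh (-0.30 ± 0.071), whose call was lost without light zone replicate 2 and without dark zone replicate 2. The higher count was 3 without light zone replicate 2. Of 71 tested respiratory chain genes 3 were higher (4.23%, below the 15.2% of all genes) and 12 lower (16.9%, near the 16.1% of all genes). The higher count was 1 without light zone replicate 2 or dark zone replicate 1. The lower count was 4 without dark zone replicate 2, 8 without light zone replicate 2, 19 without dark zone replicate 1 and 7 without any one library of the Bach2-floxed cells.

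Genes of the BCL2 family differed from gene to gene, on both the pro-survival and the pro-death side. Bcl2l1, which codes for the pro-survival protein BCL-XL, was at 10.9 and 11.9 FPKM in the light zone and 5.72 and 5.04 in the dark zone (0.96 ± 0.11, adjusted p = 0.00183, limma). Bcl2a1a, Bcl2a1b and Bcl2a1d were higher by 1.95 to 2.08; they are near-identical copies among which reads may have been divided, so their separate values are uncertain. Mcl1, the survival factor that germinal centre cells depend on, was at 190 and 193 FPKM against 187 and 195 (0.01 ± 0.040), and Bcl2 stayed below the filter at 0.657 and 0.613 against 0.244 and 0.200. On the pro-death side Bcl2l11, which codes for BIM, was lower at 8.05 and 7.15 FPKM against 13 and 13.8 (-0.74 ± 0.064). Bid and Bmf, also pro-death, were higher by 0.51 ± 0.040 and 0.52 ± 0.062. Of 8 tested pro-death genes 2 were higher, 3 lower and 3 did not pass.

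Receptors that place cells in the follicle differed in both directions, 9 higher and 6 lower of 23 tested. Cxcr5, the receptor for the follicular chemokine CXCL13, was at 93.5 and 109 FPKM in the light zone and 67.3 and 74.6 in the dark zone (0.50 ± 0.086, adjusted p = 0.00693, limma). S1pr2 and Gna13, a receptor and its G protein that confine cells to the germinal centre, were lower by 0.26 ± 0.048 and 0.36 ± 0.054. The S1pr2 call was lost with only the 4 libraries in the fit (adjusted p = 0.0607, limma) and without both replicate 2 libraries (0.0576). S1pr3 was higher at 16.7 and 20.3 FPKM against 6.92 and 8.15, and S1pr4 lower at 7.56 and 6.56 against 12.4 and 14.5. The sphingosine phosphate receptors thus did not share a direction. Gpr183, the oxysterol receptor EBI2 that draws cells to the outer follicle, was low in both zones, at 2.50 and 3.18 FPKM against 1.32 and 1.00 (0.83 ± 0.12).

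Of 18 tested genes tied to the memory fate, 9 were higher in the light zone and 4 lower, with 2 lower without light zone replicate 2, dark zone replicate 1 or either dark zone library of the Bach2-floxed cells. Ccr6, a chemokine receptor used to find memory precursors in the light zone, was at 3.11 and 3.40 FPKM in the light zone and at 0 and 0.118 in the dark zone (2.01 ± 0.11). Hhex, a transcription factor needed for memory B cells, was at 4.27 and 4.87 FPKM against 0.261 and 0.128 (2.22 ± 0.12, adjusted p = 0.000142, limma). Both genes were near 0 in both dark zone libraries. Nt5e, the ectonucleotidase CD73, was lower instead, at 8.64 and 9.17 FPKM against 16.9 and 16.5 (-0.84 ± 0.053). Cd38, the protein absent from the sorted surface, was at 12.8 and 14.8 FPKM against 6.86 and 6.53, and the 9 markers listed for B cells outside germinal centres, Fcer2a and Cr2 among them, summed to 410 and 443 FPKM in the light zone against 167 and 161. Of the 7 tested markers on that list 3 were higher, Fcer2a and Cr2 among them, and Cd55 was lower, while Klf2, Cd9 and Dtx1 did not pass. The part of other B cells in these differences was not tested. With a filter at 5 FPKM, 4 memory genes were higher.

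In the joint list of plasma cell and secretory genes, more members were higher in the light zone than lower. Hsp90b1, a chaperone of the endoplasmic reticulum, was at 130 and 132 FPKM against 71.9 and 71.0 (0.87 ± 0.033) and Derl3, a factor of protein export from that organelle, at 31.5 and 31.7 against 11.7 and 12 (1.34 ± 0.048). Igj, the antibody joining chain, was lower at 238 and 229 FPKM against 356 and 365 (-0.63 ± 0.038), as was the surface receptor gene Slamf7 (-0.52 ± 0.038). Of 19 tested members 12 were higher (63.2%, beside 15.2% of all genes) and 3 lower (15.8%, near the 16.1% of all genes). Sdc1, the plasma cell surface marker CD138, was at or below 0.141 FPKM in the 4 Bach2-intact libraries. The separate list of 5 plasma cell markers went the other way, with 2 tested and both lower in the light zone. Its members summed to 275.5 and 265.3 FPKM in the light zone against 409.6 and 418.6 in the dark zone.

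**Figure D4:**
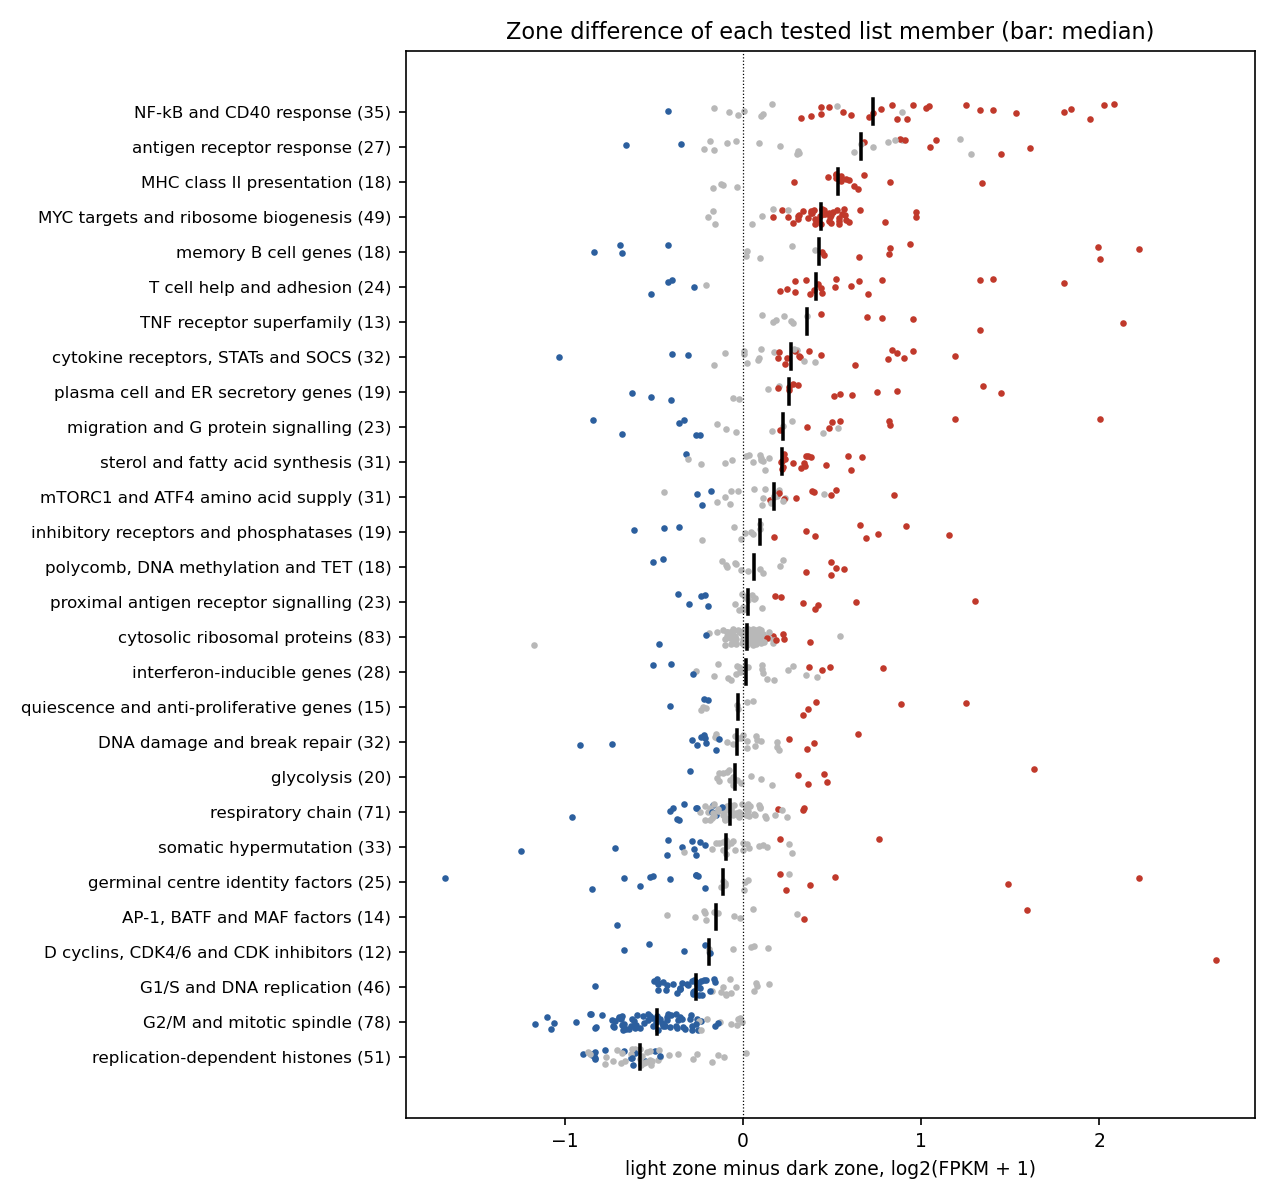
Light zone minus dark zone difference (log2(FPKM + 1)) of each tested member of the 28 lists with at least 12 tested members, red for higher and blue for lower past the threshold, grey otherwise, with a bar at the median and the number tested in brackets. The NF-kB and CD40 list lies farthest to the right by its median and the mitotic and histone lists farthest to the left.

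On the dark zone side the cell division programme led. Of 78 tested genes of G2/M and the mitotic spindle, 69 were lower in the light zone, 0 higher and 9 did not pass the test, with a median of -0.48 and differences from -1.17 to -0.00692. Cdc20, the activator of the anaphase-promoting complex, was at 64.4 and 48.5 FPKM in the light zone and 114 and 122 in the dark zone (-1.06 ± 0.13, adjusted p = 0.00226, limma). Cdc25b, the phosphatase that starts mitosis, was at 75.7 and 60.7 FPKM against 153 and 154 (-1.17 ± 0.093). Mki67, which encodes the proliferation antigen Ki-67, was at 143 and 151 FPKM against 215 and 218 (-0.56 ± 0.052), and Ccnb1, cyclin B1, at 43.8 and 38.5 against 65.4 and 71.1 (-0.72 ± 0.071). In all 4 genes the dark zone libraries lay above the light zone libraries by 1.47 to 2.25 times, so mitotic transcripts were present in both zones. Leaving out 1 library at a time left 56 to 70 lower, and 0 were higher in each case.

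Mitotic genes share promoter letters, so the windows of the 3 with the smallest p that hold the CHR letters (TTTGAA or TTCGAA, either strand) and have 1 listed start are shown, 250 bases up to the start, on the minus strand of GRCm38.p6 (RefSeq). Capitals mark the CHR letters and CCAAT, which reads ATTGG on the opposite strand. The windows are chr7:135716380-135716629 for Mki67, chr9:70421555-70421804 for Ccnb2, which encodes cyclin B2, and chr2:113848662-113848911 for Arhgap11a, a GTPase-activating protein.
Mki67: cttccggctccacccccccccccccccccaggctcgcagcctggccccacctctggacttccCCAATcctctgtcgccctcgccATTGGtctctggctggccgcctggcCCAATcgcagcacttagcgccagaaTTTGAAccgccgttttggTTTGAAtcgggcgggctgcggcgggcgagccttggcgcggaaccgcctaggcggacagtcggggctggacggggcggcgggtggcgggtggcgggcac
Ccnb2: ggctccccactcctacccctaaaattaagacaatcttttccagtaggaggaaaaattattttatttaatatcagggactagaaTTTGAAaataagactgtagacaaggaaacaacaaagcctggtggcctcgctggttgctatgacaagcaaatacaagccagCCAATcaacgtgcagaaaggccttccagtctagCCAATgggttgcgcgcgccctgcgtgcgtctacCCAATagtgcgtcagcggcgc
Arhgap11a: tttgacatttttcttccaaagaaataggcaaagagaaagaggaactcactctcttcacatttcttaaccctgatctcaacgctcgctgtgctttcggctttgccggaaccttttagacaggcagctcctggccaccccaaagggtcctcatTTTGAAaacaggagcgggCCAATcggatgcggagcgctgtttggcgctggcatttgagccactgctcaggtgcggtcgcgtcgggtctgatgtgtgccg
Over 70 windows of 64 matched mitotic genes, 37.1% held the CHR letters and 71.4% held CCAAT, beside 12.7% and 36.4% of the windows of tested genes and 17.1% and 33.8% of all windows. In the MYC target and ribosome biogenesis list, whose members were higher in the light zone, the shares were 8.89% and 24.4% of 45 windows. The E2F letters TTTNGCGC stood in 15.9% of 44 windows of replication genes, in 8.57% of mitotic windows and in 2.25% of tested windows. The E-box CACGTG stood in 6.67% of windows of the MYC target list against 8.63% of tested windows, and the CRE letters TGACGTCA in 2.22% against 2.77%. CHR and CCAAT matches do not overlap in the windows printed.

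The 3 genes behind these windows were each lower in the light zone. Ccnb2 was at 71.8 and 59.9 FPKM against 120 and 133 (-0.94 ± 0.093), and Arhgap11a at 34.2 and 32.8 against 43.9 and 43.7 (-0.38 ± 0.039, adjusted p = 0.00109, limma). The light zone libraries were below the dark zone libraries in each, as for every lower gene past the threshold.

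Genes of the G1/S transition and DNA replication were lower by less. Of 46 tested, 34 were lower and 0 higher, with a median of -0.26, and the count was 14 with only the 4 libraries in the fit and 17 without both replicate 2 libraries. Mcm5, a subunit of the replicative helicase, was at 115 and 104 FPKM against 153 and 153 (-0.48 ± 0.050, adjusted p = 0.00124, limma). Of 51 tested replication-dependent histone genes 16 were lower and 0 higher. Their copies are near-identical and most lack poly(A), and the count moved to 29 without light zone replicate 1, to 4 without light zone replicate 2 and to 6 without dark zone replicate 2. Among D cyclins, their kinases and inhibitors 5 of 12 were lower, and the count was 2 without light zone replicate 2, 3 without dark zone replicate 1 and 2 without dark zone replicate 2.

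Somatic hypermutation genes were partly lower in the light zone, 10 of 33 tested, with 2 higher (1 without either light zone replicate) and 21 that did not pass. Polh, the error-prone polymerase eta, was at 35.5 and 29.9 FPKM against 78.7 and 78.9 (-1.25 ± 0.075, adjusted p = 0.000201, limma), the largest difference of the list. The mismatch repair genes Msh3 and Msh6 were lower by 0.72 and 0.27. Of the hypermutation list 30.3% were lower and 6.06% higher, beside 16.1% and 15.2% of all genes tested. Apex1, an endonuclease of base excision repair, was higher at 18.5 and 19.3 FPKM against 9.75 and 11.7 (0.77 ± 0.14), a call lost without both replicate 1 libraries (adjusted p = 0.0775, limma) or both replicate 2 libraries (0.0608). Lig4, the ligase of end joining, was lower at 8.38 and 7.40 FPKM against 15 and 16.6 (-0.92 ± 0.084). It belongs to the DNA damage and repair list, where 31.2% were lower and 12.5% higher, beside the same 16.1% and 15.2%. In the DNA damage and repair list as a whole 10 of 32 were lower and 4 higher (2 without either dark zone replicate). The lower count was 2 without light zone replicate 2, 3 without either dark zone replicate, and 5 without either dark zone library of the Bach2-floxed cells.

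Factors of germinal centre identity were divided, 6 higher and 11 lower of 25 tested, while Bcl6 was level. Gcet2, a germinal centre adaptor of B cell motility and receptor signalling, was at 39.0 and 33.1 FPKM in the light zone and 113 and 121 in the dark zone (-1.68 ± 0.076, adjusted p = 9.84e-05, limma). Pou2af1, the octamer coactivator OCA-B, was at 506 and 464 FPKM against 867 and 882 (-0.85 ± 0.050), and Foxo1, the factor of the dark zone state, at 34.4 and 29.9 against 47.6 and 44.4 (-0.51 ± 0.078). Lmo2, a LIM-domain transcription cofactor, was higher at 63.9 and 71.0 FPKM against 22.8 and 24.0 (1.49 ± 0.070). Mef2c was higher by 0.38 ± 0.035. Known factors of one cell state thus stood on both sides of the comparison.

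Beyond these lists, the lowest genes of the light zone by the naming rule were led by H1fx, Pafah1b3, Serinc5 and Sepp1. Pafah1b3, a catalytic subunit of platelet-activating factor acetylhydrolase, was at 53.3 and 46.4 FPKM against 172 and 178 (-1.80 ± 0.089, adjusted p = 0.000129, limma). Serinc5, a membrane protein known for restricting retroviruses, was at 10.1 and 8.74 FPKM against 36.4 and 33.4 (-1.79 ± 0.079). Sepp1, selenoprotein P, was at 12.6 and 11.5 FPKM against 43.2 and 41.2 (-1.73 ± 0.054). These 3 genes were 3.50 to 3.71 times as high in the dark zone, with little spread between replicates. H1fx, a linker histone, was less even in the dark zone, at 49.0 and 74.6 FPKM, against 17.2 and 16.0 in the light zone (-1.81 ± 0.20). Pde2a, a cyclic nucleotide phosphodiesterase, was lower (-1.58), as were Lmo4, a LIM-only cofactor (-1.47), Akap12, a scaffold of protein kinase A (-1.43), Lgr5, an R-spondin receptor known from stem cells (-1.43), and Tifa, an adaptor of TRAF6 (-1.40). Otub2, Arl5c, Ptgr1 and Myl4 lay between -1.65 and -1.39. Raver1-fdx1l, a read-through of neighbouring genes at 2.36 and 1.34 FPKM against 5.58 and 7.92, shares sequence with both and is uncertain.

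Proximal antigen receptor signalling and its brakes were mixed. Of 23 tested signalling genes 7 were higher in the light zone and 5 lower. Cr2, the complement receptor CD21 of the B cell co-receptor, was at 83.3 and 102 FPKM against 36.5 and 36.9 (1.30 ± 0.087), while the kinase gene Syk was lower at 153 and 150 against 200 and 192 (-0.37 ± 0.037). The lower count was 2 without light zone replicate 2, 3 without dark zone replicate 1 and 2 without dark zone replicate 2. Of 19 tested inhibitory receptors and phosphatases 8 were higher and 3 lower. Cd72, an inhibitory lectin, was at 152 and 157 FPKM against 83.2 and 79.7 (0.91 ± 0.065), and Ptpn22, a phosphatase of receptor signalling, at 2.63 and 2.52 against 0.625 and 0.584 (1.16 ± 0.074).

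Other lists held calls in both directions, beside 15.2% of all genes higher and 16.1% lower. Of 28 tested interferon-inducible genes 4 were higher (14.3%) and 3 lower (10.7%), shares near those of all genes, with a median of 0.017; the lower count was 1 without dark zone replicate 2. Of 14 tested AP-1, BATF and MAF genes 2 were higher and 1 lower, with 1 higher and 0 lower without dark zone replicate 1 and 3 lower without light zone replicate 1. The largest difference of the list was that of Batf, a factor of class switching, at 36.2 and 35.3 FPKM in the light zone and 11.2 and 11.1 in the dark zone (1.60 ± 0.054, adjusted p = 4.74e-05, limma). Of 18 tested polycomb, DNA methylation and TET genes 5 were higher and 2 lower, the lower ones being Cbx7 and Dnmt1, the maintenance methyltransferase, at 106 and 103 FPKM against 151 and 146 (-0.51 ± 0.040). That higher count was 2 without light zone replicate 2 and 3 without either dark zone replicate. Of 15 tested quiescence genes 5 were higher and 3 lower, with 3 higher without light zone replicate 1 or without dark zone replicate 2, and 1 lower without the latter. Pdcd4, an inhibitor of translation, was at 18.8 and 20.3 FPKM against 7.0 and 8.24 (1.25 ± 0.097).

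The zone comparison was also made in the Bach2-floxed genotype, from 4 libraries that share none with the Bach2-intact comparison. Both comparisons came from the same fit with a shared estimate of the spread, so the calls of the genotypes are not independent of each other. There 1915 genes were higher in the light zone (18%) and 1708 lower (16.1%), in all 3623 of 10610 (34.1%). Of the 1609 genes higher in the light zone with Bach2 intact, 1177 (73.2%) were also called higher in the floxed genotype, which is 61.5% of that genotype's higher genes. Of the 1703 lower genes 1215 (71.3%) were also called lower, 71.1% of the other list, and 8 genes were called in opposite directions. Across genes, which are not independent replicates, the differences of the genotypes correlated at 0.44 over all 10610 and 0.75 over the 3312. All 15 leading higher genes and 14 of 15 leading lower genes were called the same way there, the exception being Raver1-fdx1l. The difference between the zone effects passed the threshold for 3 genes (0.0283%; limma), all microRNA genes, while 1232 genes had an unadjusted p under 0.05. With small RNA genes left out, 0 genes passed. The 15 myeloid markers summed to 31.1 and 158 FPKM in the light zone libraries of the floxed genotype and to 8.73 and 7.87 in its dark zone libraries; their part in its zone differences was not tested.

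**Figure D5:**
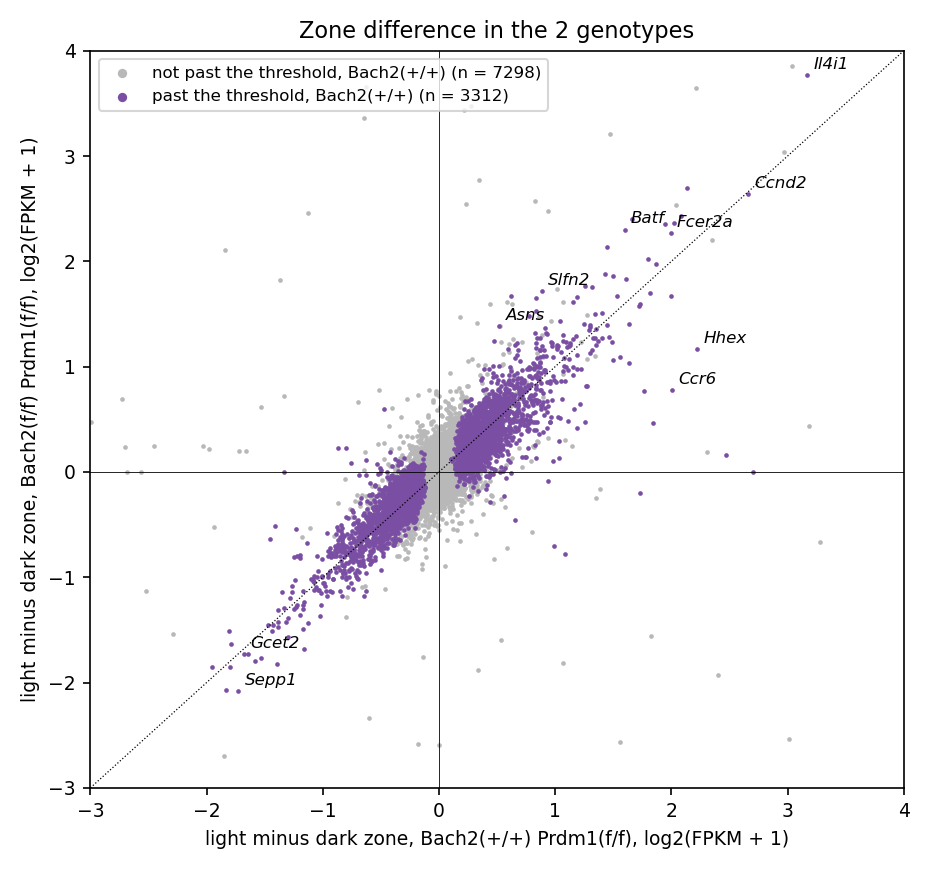
Light zone minus dark zone difference (log2(FPKM + 1)) with Bach2(+/+) Prdm1(f/f) on the horizontal axis and Bach2(f/f) Prdm1(f/f) on the vertical axis, 1 point per gene, violet for genes past the threshold with Bach2 intact. Most violet points lie near the dotted line of equal differences, Ccr6 and Hhex lie below it, and 54 genes outside -3 to 4 are not drawn.

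Some named genes differed in size between the genotypes without passing that test. Ccr6 was higher in the light zone by 2.01 with Bach2 intact and by 0.78 with Bach2 floxed (adjusted p of the difference = 0.177, limma), where it was at 0.848 and 0.696 FPKM in the light zone. Hhex was higher by 2.22 and 1.17 (adjusted p = 0.285, limma). Batf differed the other way, 1.60 against 2.30 (adjusted p = 0.142, limma), as did Asns, the asparagine synthetase of the amino acid response, 0.52 against 1.39 (adjusted p = 0.142, limma). In the replication list 34 of 46 genes were lower with Bach2 intact and 15 with Bach2 floxed, with medians of -0.26 and -0.053, and in the mitotic list 69 and 56 of 78. The difference between these counts was not tested. The MYC target list had 42 and 46 of 49 higher, with medians of 0.44 and 0.60. Bach2 transcript in the Bach2-floxed cells was at 64.5 and 62.7 FPKM in the light zone and 96.2 and 94.5 in the dark zone; a value over the whole transcript does not check the loss of an exon.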

How the data were processed

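The deposited table gives FPKM for 23234 gene symbols in 8 columns, per the file headers, and 1 row holding codes instead of values was dropped (0 columns were unmatched). TopHat2 2.0.8, Cufflinks 2.1.1 and mm9 are named in the submitters' processing notes; their roles, options and annotation are not given in the sources used here. Strand use is not given either, so overlapping genes can share reads. The depth is unknown beyond ratios from the steps of values between 0.001 and 0.1 FPKM; whole reads were not recovered, so no count test was run.

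Values were taken as log2(FPKM + 1), a scale that understates changes of low genes. Genes with 1 FPKM in 2 or more libraries were fitted with limma 3.58.1 in R 4.3.3: 4 group means, 8 libraries, a trend in the prior, 4 residual and 2.46 prior degrees of freedom. Tests were 2-sided with Benjamini-Hochberg adjustment over 10610 genes and a threshold of 0.05. "Higher" and "lower" counts are of genes past it. At the filter's edge, Prdm1 had a second-highest value of 0.967 FPKM and was left out, and Tet2 with 1.02 was kept; 133 genes lay from 0.9 to 1 and 115 from 1 to 1.1.

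The genes compared and the 43 gene lists were chosen with earlier results of these data known. Named were the 15 largest differences each way (past the threshold, at least 5 FPKM in the higher zone, no overlap, no small RNA genes, unnamed models or receptor segments), up to 8 list members with the smallest p, and a set of germinal centre genes. Marker genes listed at 0, members that did not pass or were the exception in a list, the genes that differ by replicate number and the microRNA genes were named after their values were seen. A list with no gene in the table, immunoglobulin constant genes, gave no result. Alternatives were a replicate block, pseudocounts, filters, scalings, priors, and leaving out libraries. The fit was tested on simulated data. RefSeq promoter windows (GRCm38.p6) matched 8410 of 10610 tested genes by symbol or synonym. Some genes that these rules name are not reported here.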

Additional observations from a re-analysis of the deposited data

Results flagged for a closer look

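For 3 microRNA genes the zone difference with Bach2 intact minus that with Bach2 floxed passed the threshold of the test of that difference (limma with Benjamini-Hochberg adjustment). Mir194-1 was listed at 0 FPKM in both Bach2-intact light zone libraries, at 261 and 300 in the dark zone, and at 0 in all 4 Bach2-floxed libraries, a difference of zone effects of -8.13 on the log2(FPKM + 1) scale (adjusted p = 1.75e-06). Mir1943 was at 0 in the light zone and 152 and 175 FPKM in the dark zone, and at 0 in the floxed libraries, with -7.36 (adjusted p = 1.98e-06). Mir3112 was at 0 in the light zone and 161 and 92.2 FPKM in the dark zone with Bach2 intact, and at 119 and 124 in the light zone and 0 in the dark zone with Bach2 floxed, with -13.9 (adjusted p = 1.15e-05). A value listed at 0 can be a failed estimate: among tested genes, 29 were at 0 in 1 Bach2-intact library and at 5 FPKM or more in the other 3, and 27 of these were small RNA genes. The others were Actr3, a subunit of the actin nucleator ARP2/3, at 550, 0, 452 and 467 FPKM, and Sfi1, a centrosomal protein, with 0 in dark zone replicate 1 only. Whether the zeros of the 3 microRNA genes are such estimates was not tested.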

How the results depend on the processing

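With only the 4 Bach2-intact libraries, 892 genes were higher and 786 lower. With both replicate 1 libraries left out 1056 were higher, and with both replicate 2 libraries left out 777 were higher and 660 lower. Leaving out 1 library at a time gave 1019 to 1408 higher and 917 to 1671 lower genes with Bach2 intact, and 1128 to 2019 higher and 842 to 1838 lower with Bach2 floxed. The genes whose zone effect differed between genotypes numbered 3 to 6 when 1 library was left out, 5 with no filter or with a robust prior, 0 without small RNA genes, and 15 and 18 without both replicate 1 or both replicate 2 libraries. The causes were not tested. Nothing in the labels ties same-numbered libraries, and the deviations of same-numbered libraries correlated at -0.108 to 0.124 over their 6 pairs (0.061 between the Bach2-intact zones), so the numbers were not treated as pairs, although 13 genes moved with the number in both Bach2-intact zones. A replicate block gave 1456 higher and 1534 lower genes, and a replicate block within genotype 1294 and 1263, with 5 genes differing between genotypes and 15 of 27 antigen receptor genes higher in place of 7, Myc (adjusted p = 0.019, limma), Nr4a1 (0.0137) and Egr1 (0.00719) among them. All 3312 genes kept their direction in each setting that tested them all, except that 3310 did after quantile normalization. Only the scalings and the quantile normalization could have changed a direction. In the other settings it was fixed, because no gene of the 3312 overlapped between the zones. A lone library left in a zone was assumed to vary like the other groups. Count models were not run, since whole reads were not recovered from FPKM. Genes near 0 changed sign. With both replicate 1 libraries left out Bcl6 was at -0.0276, Mcl1 at -0.0134 and Rfxank at 0.0312. Leaving out 1 library at a time gave -0.0517 to 0.065 for Bcl6, -0.025 to 0.0372 for Mcl1, -0.0803 to 0.0174 for Rfxank, -1.25 to 0.812 for Fos and -1.63 to 1.31 for Fosb, none past the threshold.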
